A study of Mus musculus with 8 samples.

Results

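The m6A peaks that the authors' annotation placed in 5' untranslated regions (5' UTRs) were followed through 4 peak lists of mouse spermatogenic cells. Members were all listed peaks of the class five_prime_utr or start_codon, called 5' peaks here, and they numbered 1221 of 35697 peaks. In MeRIP-seq an antibody against N6-methyladenosine (m6A) pulls down RNA fragments, which are sequenced beside unselected fragments, the input. The C57BL/6 mice were 12 weeks old and either wild type (WT) or Alkbh5-/- (KO), that is, without the gene of an enzyme that removes m6A from RNA. Sample titles call the fractions of testis cells PA and RO, which the title of the series pairs with pachytene spermatocytes and round spermatids. Each combination of genotype and fraction (WT PA, KO PA, WT RO, KO RO) had 1 input and 1 immunoprecipitated library, 8 samples in all, and the labels do not say how many animals each came from. With 1 library per group there is no replicate check and no test between groups. The intervals given are at 95% and cover counting error only, and peaks of one list share their libraries.

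The 5' UTR is the stretch of an mRNA between its cap and its start codon, over which the small ribosomal subunit moves before translation begins. Most m6A of mRNAs lies in coding sequence and around the stop codon, in the sequence context GGAC and its relatives. m6A in 5' UTRs is known for its links to translation that depends less on the cap, among others in heat shock mRNAs. An antibody against m6A also binds m6Am, a related mark on the first transcribed base of many mRNAs, so peaks at the very start of a transcript can hold either mark.

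Some facts on the libraries come before the results. Input counts totalled between 9921365 (KO PA) and 13147239 (WT PA). A list was tied to its group by its name alone, and Alkbh5 itself was not analysed here because no list gives it a symbol. Of the 10 pachytene markers chosen, 5 had a symbol in the lists, and their summed level in CPM (counts scaled to library size) was 2401 for WT and 1495 for KO in PA, and 2207 and 1711 in RO. Sycp2 gave most of this sum in each library. For 6 round spermatid markers with a symbol, the sum was 209 CPM (WT) and 363 CPM (KO) in PA, and 368 CPM (WT) and 651 CPM (KO) in RO. Summed spermatid markers were thus higher in RO than in PA within each genotype and higher in KO than in WT within each fraction, and those of KO PA were near those of WT RO. Prm2 and Tnp2 carried the difference between genotypes. Acrv1 was lower in KO, with 54.7 (WT) and 51.3 CPM (KO) in PA and 136 and 77.6 CPM in RO. Acr was lower likewise, with 43.9 and 31.3 CPM in PA and 73.4 and 47.9 CPM in RO. At low levels Tssk1 and Tssk2 were higher in KO. Tssk1 had 9.55 and 20.7 CPM in PA and a near-even 27.5 and 27.9 CPM in RO. Tssk2 had 5.88 and 14.4 CPM in PA and 5.47 and 30.3 CPM in RO. Sertoli cell markers (4 genes) summed to between 172 CPM (WT RO) and 318 CPM (KO PA), and Leydig cell markers (2 genes) to between 16.7 CPM (KO RO) and 136 CPM (WT PA). Myh11 of peritubular muscle lay between 143 CPM (WT RO) and 285 CPM (WT PA). None of these markers was at 0, and their part in the results below was not tested.

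The sequence of the starts could be read for some members. RefSeq gene starts of GRCm38.p6, the assembly also called mm10, were matched by symbol, chromosome and strand for 157 of 214 5' peaks in WT PA, 263 of 371 in KO PA, 269 of 363 in WT RO and 195 of 273 in KO RO. Of these matched peaks, 29.3% (22.7% to 36.8%), 33.5% (28.0% to 39.4%), 36.4% (30.9% to 42.3%) and 25.6% (20.02% to 32.2%) covered some of the first 50 transcribed bases. Coding peaks did so in 0.866% to 1.52% of cases. Together the 5' peaks covered part of 195 such windows in 188 genes. Motifs were counted over the whole of each window, so some may lie outside the part that a peak covered. The motifs GGACT and GGAC were searched on the transcript strand only, and each match of the longer one is also a match of the shorter. GGACT lay in 21 of the 195 windows (10.8%, 7.15% to 15.9%) and in 5.76% of all 32851 RefSeq windows of the same length, and GGAC in 30.8% (24.7% to 37.6%) against 18.9%. The median content of G and C was 60% in the covered windows and 56% in all windows. At 50% to under 65% G and C, GGAC lay in 33.7% of 92 covered windows (24.9% to 43.8%) and in 20.8% of all windows, while GGACT lay in 7.61% (3.73% to 14.9%) and 6.78%. Below 50% GGACT lay in 11.4% of 35 covered windows (4.54% to 25.95%) and in 5.52% of all, and from 65% in 14.7% of 68 (8.19% to 24.997%) and in 4.32% of all. GGAC lay in 20% of these 35 windows (10.04% to 35.9%), an interval that included the 12.9% of all windows below 50%. From 65% it lay in 32.4% of the 68 (22.4% to 44.2%) and in 22.1% of all, just under the interval. An A, the base that can carry m6Am, was the first base of 37.4% of the covered windows (30.9% to 44.4%) and of 34.4% of all. A covered window need not have its first base under a peak. Of the matched 5' peaks that reached such a window, 34 of 46 in WT PA and 59 of 88 in KO PA held the first base. In RO these were 64 of 98 (WT) and 31 of 50 (KO).

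The following stretches show what lay under 5' peaks found in 3 or 4 lists, because these are the starts at which a motif was covered in each of those lists. They are RefSeq GRCm38.p6 sequences, 5' to 3' on the transcript strand, cut to short flanks or at the start of the transcript or base 50, with the motif in capitals. A match is a description of letters, not a mapped site.
Fosb, 4 lists, chr7:19310002-19310029, - strand: cggctacgccggGGACacgcggagccgg
Txndc2, 4 lists, chr17:65642155-65642179, - strand: acaaggctcctgGGACcatcctaga
Fam222a, 4 lists, chr5:114568251-114568268, + strand: ccGGACgcagggatcgcc
Zfp36l1, 4 lists, chr12:80112964-80112983, - strand: agcaggcgtgtgGGACTcct
Jun, 3 lists, chr4:95052186-95052214, - strand: caggctggataaGGACTcagagttgcact
Zfp85, 3 lists, chr13:67755156-67755184, - strand: ccccgctagacaGGACTctgctctctgtg
Spg20, 3 lists, chr3:55112175-55112202, + strand: cgggctcggagcGGACcgctggctaccc
Sesn1, 3 lists, chr10:41810601-41810623, + strand: accagccttttgGGACcaagcac
Tex47, 3 lists, chr5:7304164-7304188, + strand: aagccaagaGGACctcagacctcaa

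Fosb and Jun encode subunits of AP-1, a transcription factor whose genes respond early to stimuli. The fold enrichment of a peak, the authors' ratio of immunoprecipitated over input signal, was at Fosb 14.4 (WT) and 8.29 (KO) in PA, and 164 (WT) and 26.6 (KO) in RO. For Jun it was 6.27, 16.7, 63.2 and 15.8 in the order WT PA, KO PA, WT RO, KO RO, which all sets of 4 values follow, in a region with a 5' peak in all 4 lists of which 3 covered the printed motif. Because a fold moves with the depth of its libraries, it served to rank peaks inside a list, and values of different lists only stand side by side. Both genes were abundant, with 7944, 5382, 3436 and 4469 input counts for Fosb and 5723, 2849, 2735 and 2354 for Jun. Txndc2, a thioredoxin of spermatids, had folds of 22.8, 21.2, 2.78 and 24.1, and was lowest in WT RO. Zfp36l1, whose protein binds AU-rich elements and speeds mRNA decay, had folds of 11.6, 7.14, 5.07 and 3.48. Sesn1, a stress-induced inhibitor of growth signalling, had a 5' peak in WT PA (7.12), KO PA (3.38) and KO RO (9.61). The zinc finger gene Zfp85 had one in the same 3 lists, with 16.9, 20.7 and 12.8.

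WT PA held 214 5' peaks (186 to 245), KO PA 371 (334 to 411), WT RO 363 (327 to 402) and KO RO 273 (242 to 307). In PA the KO list thus had 1.73 times as many as the WT list (1.46 to 2.06), and in RO 0.752 times as many (0.640 to 0.882). As a share of all peaks of the list the 5' peaks made up 2.85%, 3.74%, 3.85% and 3.09%. The numbers had the order of the lengths of the lists (7502, 9931, 9418 and 8846 peaks), and the shares did not, with WT RO above KO PA. The share was higher in KO by 0.883 percentage points in PA (0.347 to 1.41), and lower in KO in RO, with a difference of -0.768 points (-1.30 to -0.237). Between fractions it was higher in RO by 1.002 points in WT (0.456 to 1.54) and lower in RO in KO, with -0.650 points (-1.17 to -0.128). These are the same 4 shares compared along rows and columns. The start_codon class gave 1, 4, 3 and 0 of these peaks. Some peaks stand more than once, under different gene identifiers: counting overlapping 5' peaks of a list once left 208, 357, 348 and 257.

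**Figure D1:**
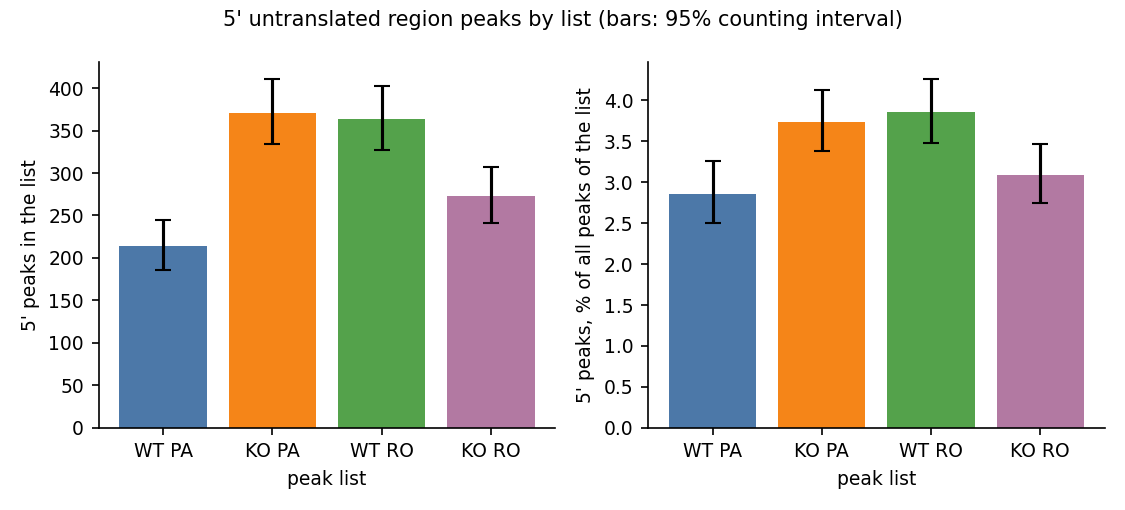
Number of 5' peaks (left axis panel) and their percentage of all peaks of the list (right panel) for the 4 lists; bars start at 0 and error bars are the 95% exact Poisson and Wilson intervals, which cover counting error only. KO PA (371) and WT RO (363) stand above WT PA (214) and KO RO (273) in both panels.

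The 5' peaks were short. Their median exonic width was 210 bp in WT PA (209 to 211), 211 bp in KO PA (210 to 238), 181 bp in WT RO (181 to 209) and 211 bp in KO RO (210 to 239). Coding peaks had medians of 266, 281.5, 241 and 270 bp, and 3' UTR peaks of 211, 240, 210 and 211 bp. The longest 5' peak had 1050 exonic bp, in KO PA. A peak of more than 1 block crosses a splice junction, and 20.6% (15.7% to 26.5%), 25.1% (20.9% to 29.7%), 21.2% (17.3% to 25.7%) and 21.2% (16.8% to 26.5%) of the 5' peaks did. Only 5.54% to 8.08% of the 3' UTR peaks had several blocks, and 16.8% to 28.1% of the coding peaks. The median fold of the 5' peaks was 10.5 (8.78 to 11.6), 10.9 (10.2 to 12.4), 12.1 (10.8 to 13.5) and 9.61 (8.45 to 11.0). Within each list it was below that of all other peaks, whose medians were 11.9, 13.2, 15.5 and 12.2, although the intervals met at 11.6 in WT PA. The authors' false discovery rate was 0.05 or more for 8.41%, 2.70%, 14.6% and 4.03% of the 5' peaks. Among all other peaks this share was 6.83%, 2.13%, 13.03% and 3.52%, so that WT RO had the highest share in both groups. Nearly all 5' peaks lay in protein-coding genes (213, 370, 362 and 271). On the X chromosome lay 4, 13, 4 and 10 of the 5' peaks, or 1.87%, 3.50%, 1.10% and 3.66%. Of the other peaks 1.98%, 2.34%, 1.61% and 2.59% lay there. No 5' peak lay on the Y or mitochondrial chromosome, each of which held at most 0.133% of the other peaks of a list.

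Sharing between lists was counted where peaks overlapped by 1 bp or more of exon blocks on the same strand. In PA, 72.4% of the WT 5' peaks (66.1% to 77.98%) overlapped a KO peak of any class, and 42.9% of the KO 5' peaks (37.9% to 47.9%) a WT peak. For RO these shares were 37.5% (32.6% to 42.6%) of the WT and 49.8% (43.9% to 55.7%) of the KO 5' peaks. Each of these shares was below that of coding peaks of the same list. The difference from coding peaks was -12.8 points (-19.2 to -7.12) for WT PA, -18.1 (-23.2 to -12.8) for KO PA, -27.7 (-32.7 to -22.4) for WT RO and -13.9 (-19.9 to -7.83) for KO RO. Against 3' UTR peaks it was -8.30 points (-13.7 to -2.79) in KO PA and -13.0 (-18.2 to -7.49) in WT RO, while in WT PA (-9.33 to 3.33) and KO RO (-10.3 to 2.25) the interval included 0. Between the KO lists, 81.7% of the KO RO 5' peaks (76.7% to 85.8%) overlapped a KO PA peak, against 81.1% of the other KO RO peaks. The reverse share was 57.1% of the KO PA 5' peaks, against 70.5% of the others. A counterpart in the other genotype was itself in a 5' UTR for 89.3% to 91.9% of the shared 5' peaks and in coding sequence for 7.35% to 9.43%.

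**Figure D2:**
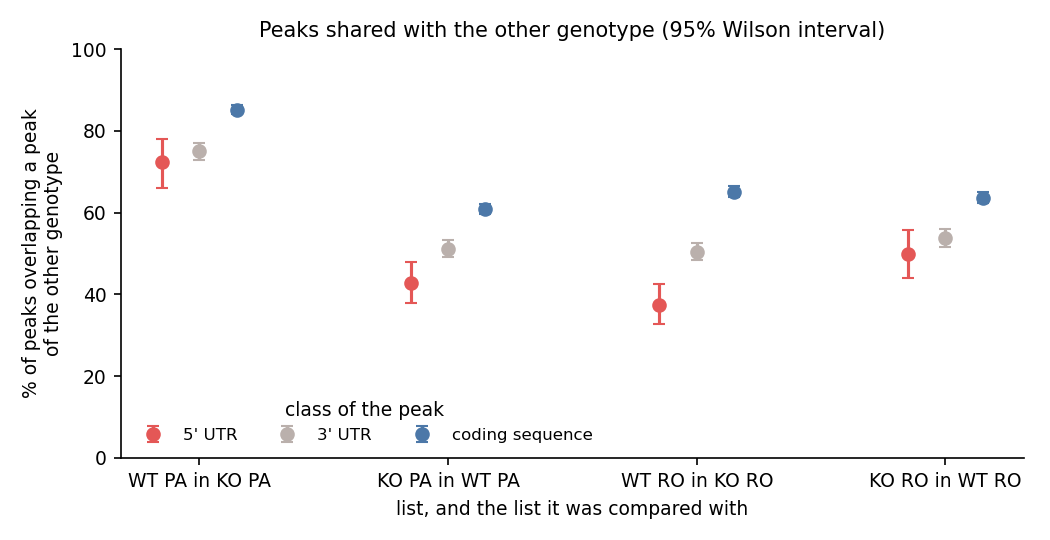
Percentage of 5' UTR, 3' UTR and coding peaks of each list with an overlapping peak in the other genotype of the same fraction, with 95% Wilson intervals. The 5' UTR points are the lowest of the 3 classes in each list, from 37.5% (WT RO) to 72.4% (WT PA), although their intervals overlap those of 3' UTR peaks in WT PA and KO RO.

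Sharing was highest at high folds. Among 5' peaks with a fold of 15 or more, 86.7% for WT PA (77.2% to 92.6%), 67.4% for KO PA (59.0% to 74.8%), 53.8% for WT RO (45.7% to 61.8%) and 73.8% for KO RO (63.5% to 82.0%) were shared with the other genotype. At a fold of 7 to under 15 these shares were 61.3%, 32.4%, 24.6% and 36.8%. Below 7 they were 68.8%, 25.2%, 30.5% and 41.5%, so that sharing did not rise steadily with the fold in WT PA, WT RO and KO RO. For the other peaks at a fold of 15 or more they were 89.1%, 77.3%, 69.1% and 74.3%. Above a fold of 15 the 5' peaks of WT RO and KO PA were thus shared less than the other peaks, while the intervals of WT PA and KO RO included the share of the others. Between 7 and 15 the others had 71.0%, 44.4%, 43.6% and 51.8%, and the interval of the 5' peaks included that share for WT PA alone (50.02% to 71.5%).

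Joining 5' peaks that overlap, within and across lists, gave 666 regions in 628 genes. Of these regions 394 (59.2%, 55.4% to 62.8%) had a 5' peak in 1 list, 119 in 2, 83 in 3 and 70 (10.5%, 8.40% to 13.1%) in all 4. WT RO alone held 187 regions and KO PA alone 123, whereas WT PA alone held 44 and KO RO alone 40. Of the WT RO 5' peaks, 49.0% overlapped no peak of the other 3 lists, against 30.1% of the other WT RO peaks. For KO PA these shares were 29.1% and 17.0%, for WT PA 17.8% and 11.2%, and for KO RO 11.7% and 11.8%. A further 52 regions had 5' peaks in both KO lists and in neither WT list, and 11 in both WT lists and neither KO list. This count was not made for other peaks. Of those, 81.1% in KO RO and 70.5% in KO PA overlapped a peak of the other KO list. Between the WT lists it was 64.4% of the other WT PA and 51.2% of the other WT RO peaks. Counting peaks of any class over the 666 regions, 95 were found in all 4 lists and 173 in WT RO alone. Of the 52 regions of both KO lists, 42 stayed without any WT peak. The highest fold of a region had a median of 8.76 for regions in 1 list, 11.7 in 2, 25.6 in 3 and 55.4 in 4. A region of more lists draws this highest value from more folds, which alone makes it tend to rise with the number of lists. Taken list by list, the median folds of the 70 regions in all 4 lists were 17.2, 21.5, 28.0 and 16.9.

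**Figure D3:**
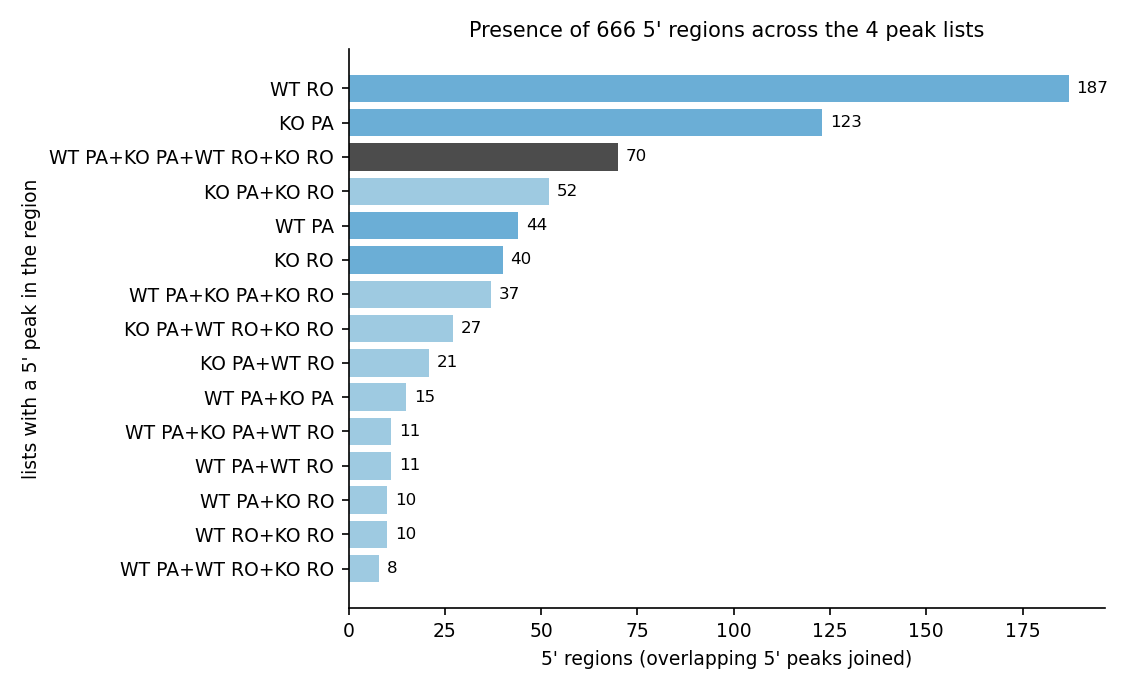
Number of 5' regions by the set of lists that had a 5' peak in them (666 regions in all; horizontal axis, regions; dark bar, all 4 lists; medium blue, 1 list; light blue, 2 or 3 lists). The longest bars are WT RO alone (187) and KO PA alone (123), followed by the 70 regions of all 4 lists.

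For genes whose 5' peak was found in 1 list only, the input level was set against the gene's mean over the 4 libraries. The median deviation in the library of the same name was 0.25 on the log2 scale for WT PA (39 genes), 0.06 for KO PA (110 genes), 0.13 for WT RO (168 genes) and 0.14 for KO RO (34 genes). The library of the same name had the highest of the 4 medians for WT PA, WT RO and KO RO, while for KO PA genes that of WT PA was higher, at 0.10. Between 26.4% and 28.6% of these genes had their highest level in the input of that list. This is near the share that an even spread over the 4 libraries would give, and the same share was not taken over other genes.

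The 70 regions of all 4 lists are the best supported members. Their median fold was 17.2, 21.5, 28.0 and 16.9. The highest of the 4 folds was in WT RO for 33 of the 70, in KO PA for 20, in WT PA for 11 and in KO RO for 6. WT RO also had the highest median fold over all peaks that were not 5' peaks (11.9, 13.2, 15.5 and 12.2). This count was not made for other regions of all 4 lists, so it is not shown to be particular to 5' peaks. Within a region the highest fold was a median of 5.57 times the lowest. As a description over these 70 regions, which share genes and were chosen for presence in every list, the folds of the PA and RO lists had a Spearman rho of 0.51 in KO and 0.30 in WT, and those of the WT and KO lists 0.37 in PA and 0.34 in RO.

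Ranked by the lowest of their 4 folds, Nol4 led these regions with folds of 69.6, 92.5, 152 and 91.3 (mm10 chromosome 18, 23039886 to 23040695, - strand). Dtx1, a ubiquitin ligase of Notch signalling, followed with 147, 141, 57.2 and 130 (chromosome 5, 120710430 to 120711538, - strand), and WT RO was its lowest list. The third region lay under Ggnbp1, a gametogenetin-binding protein, and also under the name Zbtb9 (chromosome 17, 26974296 to 26975134, + strand), with 46.4, 44.0, 231 and 47.8. Zbtb9 had 0 input counts in every library, against 1209, 687, 943 and 674 for Ggnbp1. Msl2, a subunit of a histone acetyltransferase complex, had 40.5, 59.9, 179 and 96.4 (chromosome 9, 101074849 to 101075418, + strand).

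Ddx6, an RNA helicase of processing bodies that holds mRNAs in a repressed state, had folds of 75.9, 31.8, 147 and 30.9 (chromosome 9, 44604892 to 44607420, + strand). Both WT values were above both KO values there. Snx33, a sorting nexin of endocytosis, had 36.2, 45.5, 148 and 25 (chromosome 9, 56926549 to 56927146, - strand). Atp2b4, a plasma membrane calcium pump that sperm need for motility, had 40.1, 86.5, 30.6 and 24.3, highest in KO PA (chromosome 1, 133740057 to 133784871, - strand, with introns). The tyrosine kinase gene Abl1 had 24.2, 29.6, 60.9 and 31.8 (chromosome 2, 31688795 to 31690576, + strand), and its KO PA peak covered 1020 exonic bp. In 6 of these 8 regions WT RO had the highest fold, the exceptions being Dtx1 and Atp2b4. WT RO was also the list with the highest median fold over its other peaks.

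**Figure D4:**
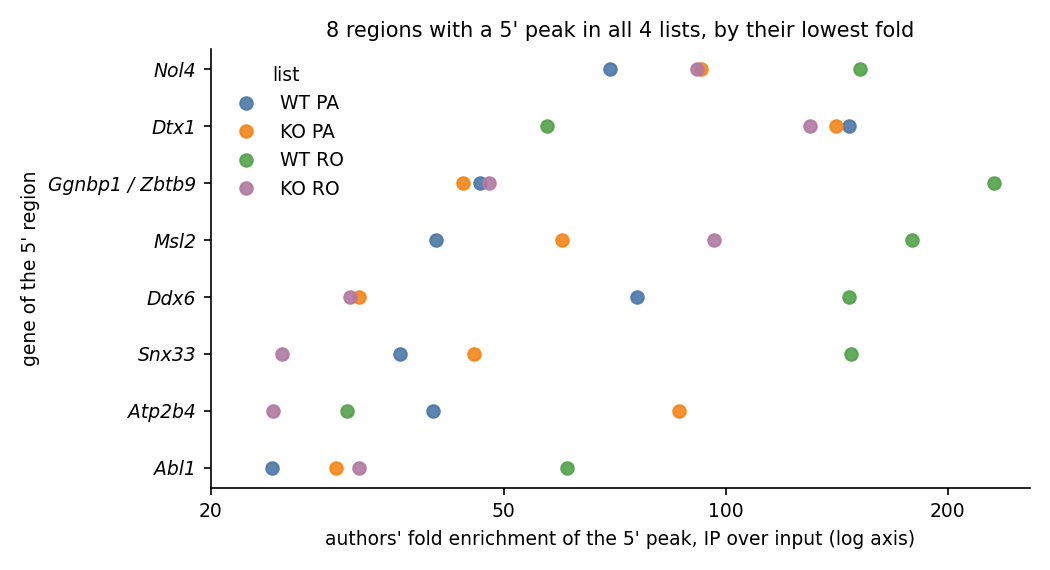
The authors' fold enrichment in the 4 lists (points, log axis) for the 8 regions with 5' peaks in all lists that ranked highest by their lowest fold (vertical axis, gene names). WT RO is the highest point except for Dtx1 (147 in WT PA) and Atp2b4 (86.5 in KO PA), and no point lies below 24.2.

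The highest folds of single lists belonged partly to the same genes. In WT PA they were Dtx1 (147), Fam83a (111), Cped1 (82.2) and Naif1 (79.1), and in KO PA Lats2 (240), Dtx1 (141), Naif1 (104) and Nol4 (92.5). In WT RO they were Cdca3 (237), Ggnbp1 with Zbtb9 (231) and Fancl (209), and in KO RO Lats2 (194), 4931406P16Rik (140), Dtx1 (130) and Msl2 (96.4). Lats2, a kinase of the Hippo pathway that restrains growth, had a fold of 21.1 in WT PA against 240, 202 and 194 in the other lists (chromosome 14, 57734036 to 57745954, - strand), and is listed under 2 identifiers. Cdca3, which acts at entry into mitosis, had 19.0, 19.0, 237 and 50.7 (chromosome 6, 124829547 to 124830102, + strand). Fancl, the ubiquitin ligase of the Fanconi anaemia complex, had 21.1, 12.8, 209 and 6.41. Naif1 went the other way, with 79.1 and 104 in the PA lists against 8.07 and 25.3 in the RO lists. Fam83a had 111 in WT PA and 16.9, 14.8 and 50.7 elsewhere.

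Peaks without a counterpart in the other genotype were named where the gene had at least 20 counts in both inputs. In WT PA these were Slc30a1, a zinc exporter (fold 40.1, 343 counts in WT and 589 in KO), Pced1a (30, 524 and 251) and Map3k11, a stress kinase (20, 363 and 229). Slc30a1 (chromosome 1, 191906767 to 191906977, + strand) and Map3k11 had no peak there in any other list, whereas Pced1a had one in KO RO (13.4). In KO PA they were Fmnl2, which nucleates actin filaments (57.5, 686 counts in WT and 486 in KO), the corepressor Tle1 (53.4, 661 and 1082) and the histone demethylase Kdm5a (35.7, 3074 and 3542). Fmnl2 (chromosome 2, 52857980 to 53014853, + strand, across introns) was found in KO PA alone, Tle1 in both KO lists, and Kdm5a also in both RO lists, with 33.6 in WT and 14.9 in KO. The deeply counted Kdm5a lacked a peak in WT PA at 3074 counts.

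In WT RO the peaks of 1 genotype with the highest folds lay in Best1, a chloride channel (98.2, 454 counts in WT and 571 in KO), Syt11 (96.9, 722 and 581) and Prr30 (95, 745 and 749). Best1 (chromosome 19, 9997151 to 10001633, - strand) was found in WT RO alone. Syt11 had 5' peaks in both PA lists as well, with 24.2 in WT and 14.3 in KO, so that KO RO alone lacked it. In KO RO they were Lrba, a protein of vesicle traffic (75.7, 2675 counts in WT and 2842 in KO), the sialyltransferase St3gal2 (61.7, 49 and 89) and the growth factor Vegfa (58.8, 164 and 253). All 3 also had 5' peaks in both PA lists, with folds of 7.38 and 86.5 for Lrba, 11.6 and 38.4 for St3gal2, and 37.9 and 48.9 for Vegfa, so that WT RO was the list without them. Over all such peaks the gene itself was rarely missing from the other input, where 91.5%, 94.6%, 98.6% and 95.3% of the genes had 20 counts or more. Another peak of the gene was listed there for 45.8% (33.7% to 58.3%), 47.1% (40.3% to 53.9%), 48.6% (42.1% to 55.2%) and 54.3% (45.7% to 62.6%) of them. For coding peaks without a counterpart the genes with 20 counts or more made up 91.2%, 96.9%, 94.5% and 94.2%. Those with another peak made up 53.97%, 47.2%, 52.5% and 49.6%, each inside the interval of the 5' peaks. For 3' UTR peaks the latter share was 48.7%, 36.8%, 43.1% and 40.8%, below that interval in both KO lists.

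The regions of both KO lists and no WT list were led by Zcchc6, an enzyme that adds uridines to RNA ends, with 21.8 in KO PA and 70.9 in KO RO, where both WT lists held a peak of another class. Tle1 (53.4 and 9.32), Flrt1 (33.1 and 25) and Mettl4 (32.7 and 25.3) followed, without any WT peak. Mettl4, itself an RNA methyltransferase, had 383, 562, 461 and 420 counts in the 4 inputs. These 4 genes were chosen after their values were seen.

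Gene groups were then read against the 7.19% of the 8721 peak-bearing gene names that had a 5' peak in some list. Of 16 m6A enzymes and readers with a peak, none had a 5' peak. In translation initiation 2 of 25 did. Eif4g3, a scaffold of the cap-binding complex that spermatocytes need to complete meiosis, had 5' peaks in all 4 lists with folds of 29.3, 27.8, 7.77 and 8.22 (chromosome 4, 137993052 to 137993532, + strand), the PA lists above the RO lists in both genotypes. It had 9250, 5340, 9010 and 5518 input counts. Eif2s1, the alpha subunit of eIF2, had none in KO PA and folds of 11.6, 21.5 and 6.12 in the others.

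Among heat shock and chaperone genes 5 of 47 had a 5' peak. By list these were 0 of 28 genes of the group with a peak in WT PA, 4 of 39 in KO PA, 2 of 36 in WT RO and 3 of 36 in KO RO, where 4.31%, 5.63%, 5.80% and 4.41% of all gene names with a peak had a 5' peak. Dnajb1, a co-chaperone of HSP70, had a 5' peak in KO PA (29.7) and peaks of another class there in both RO lists. The HSP70 genes Hspa1b and Hspa1a had low folds, of 4.69 in KO PA and 1.86 in KO RO. These 2 genes are near-identical copies, so that reads and peaks may be exchanged between them. Dnajb7 had 3.82, 20.2 and 6.34 in KO PA, WT RO and KO RO, and Dnajc10 had 8.84, 5.72 and 5.14.

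Of 23 meiosis genes with a peak, Syce2 of the synaptonemal complex was the one with a 5' peak, in WT PA (14.8). Spermiogenesis genes had 5 of 34. By list these were 0 of 13 genes of the group with a peak in WT PA, 2 of 25 in KO PA, 4 of 24 in WT RO and 0 of 22 in KO RO. Of all gene names with a peak, 4.31%, 5.63%, 5.80% and 4.41% had a 5' peak. Capza3, an actin-capping protein of sperm (36.3), the kinase Tssk3 (23.5) and the sperm enzyme Ldhc (5.83) had theirs in WT RO alone. Odf1 of the outer dense fibres had folds of 12.2 in WT RO and 7.14 in KO PA, and the transcription factor Crem had 11.3 in KO PA. Input counts of Capza3 were 104, 394, 221 and 362 and those of Tssk3 116, 441, 196 and 397, so that the list with their 5' peak was not that with the highest count.

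Among Zfp zinc finger genes 14 of 258 had a 5' peak. Zfp260 (44.3, 21.7, 44.4 and 31.5) and Zfp664 (18.1, 35.7, 34.4 and 22.1) had one in all 4 lists. The ubiquitin system had 22 of 193. Usp54 (22.2, 23.8, 40.5 and 23.1) was nearly even across the lists, and Usp53 had 155 in WT RO, 9.78 in KO PA and 24.5 in KO RO. Fbxo43, an inhibitor of the anaphase-promoting complex in meiosis, had 44.3, 29.3 and 11.0 in WT PA, WT RO and KO RO, with a peak of another class in KO PA. Chromatin modifiers had 10 of 93, with Brd2 (16.9, 3.76, 6.28 and 2.77) and Kat14 (7.38, 32.3, 14.8 and 21.6) in all 4 lists. The shares of these groups lie between 0% and 14.7%, and no test was made of any of them.

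Genes with a 5' peak often had a further peak in the same list. This held for 50.5% of 204 genes in WT PA (43.7% to 57.3%), 60.3% of 343 in KO PA (55.1% to 65.4%), 54.3% of 337 in WT RO (49.0% to 59.5%) and 58.1% of 246 in KO RO (51.9% to 64.1%). Among genes with a coding peak it held for 45.1%, 48.7%, 49.8% and 46.6%, and among genes with a 3' UTR peak for 38.2%, 42.6%, 42.4% and 38.3%. The intervals of the 5' genes included the coding share in WT PA and WT RO. Of genes with peaks but no 5' peak, a group that loses genes with many peaks, it held for 32.3%, 33.5%, 33.3% and 31.4%. The further peak lay in coding sequence for 34.8%, 45.5%, 37.4% and 43.5% of the 5' genes, and in the 3' UTR for 17.2%, 18.7%, 22.0% and 21.5%. Where a gene had a 5' peak and peaks of another class, its highest 5' fold was set against the highest fold of those others. In WT PA the 5' fold was the higher in 29.6% of 98 genes, and in KO PA in 29.7% of 195. For RO this held in 31.2% of 173 genes (WT) and 31.8% of 132 (KO). A gene with several other peaks gives that side more values, so these shares do not compare single peaks.

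Genes with more RNA more often had another peak. The median input level of genes with a 5' peak was 44.5, 47.4, 52.1 and 47.1 CPM, that of genes with a coding peak 50.5, 47.8, 44.1 and 45.6 CPM, and that of all genes with a peak 39.2, 36.9, 33.7 and 34.8 CPM. The interval of the 5' genes included the level of coding genes in each list, and that of all genes with a peak in WT PA (38.3 to 55.4). At 30 to under 100 CPM, 59.0% of the 5' genes (46.5% to 70.5%), 63.0% (54.3% to 70.9%), 58.3% (49.4% to 66.8%) and 62.9% (52.5% to 72.2%) had another peak, against 46.2%, 51.4%, 53.7% and 48.9% of the coding genes. The interval for WT RO included the coding share. At 100 CPM or more the 5' genes had 61.3% (48.8% to 72.4%), 80.6% (71.5% to 87.4%), 62.9% (53.3% to 71.5%) and 77.9% (66.7% to 86.2%), against 64.5%, 69.6%, 68.2% and 67.5%. There both WT shares were below those of coding genes and within counting error of them, and both KO shares were above, with the interval of KO RO including the coding share.

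**Figure D5:**
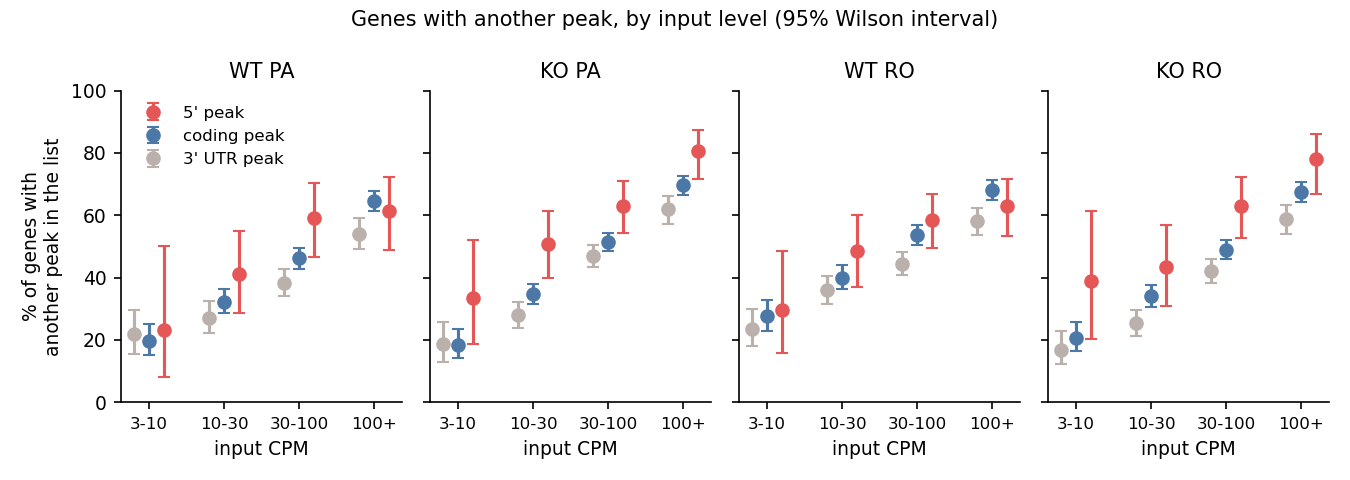
Percentage of genes with another peak in the same list (vertical axis), for genes with a 5' peak (red), a coding peak (blue) or a 3' UTR peak (grey), in ranges of the input level in CPM (horizontal axis); points are shares and bars 95% Wilson intervals, and a gene with peaks of several classes counts in each. Shares rise with the input level in all 3 groups, and at 100 CPM or more red lies above blue in KO PA (80.6% against 69.6%) and KO RO (77.9% against 67.5%) and below it in both WT lists.

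The share of genes with a 5' peak rose with the input level, as did that of genes with any peak. In KO PA the 5' share was 0.126% at 1 to under 3 CPM, 1.53% at 10 to under 30 and 4.71% at 100 or more. For WT PA it was 0.121%, 1.10% and 2.71%. Any peak was found in KO PA for 199 of 4764 genes at 1 to under 3 CPM and 1322 of 1974 at 100 or more. Among genes with a peak, the part with a 5' peak changed less between these levels, from 3.02% to 7.03% in KO PA and from 3.45% to 5.06% in WT PA. The 5' share over all genes reached 4.61% (3.82% to 5.54%) in WT RO and 3.43% (2.72% to 4.33%) in KO RO at 100 CPM or more. The order of the lists in the number of 5' peaks, KO PA and WT RO above WT PA and KO RO, was thus found at the highest input levels too. A few genes with a 5' peak had 3 counts or fewer in the library of their list (9, 11, 8 and 7 genes), among them Zbtb9, Zbed6 and the second identifier of Lats2. Some of these share exons with a counted gene, and the way the authors counted shared reads is not given in the sources used here.

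Input counts were compared between genotypes to see whether genes with a 5' peak in either genotype differed in level. In PA, 50 of 400 such genes (12.5%) were at least 2-fold higher in KO and 43 (10.8%) at least 2-fold lower. Among all 24331 genes kept at a CPM of at least 1, 23.8% were higher and 19.9% lower. In RO, 41 of 450 (9.11%) were higher and 50 (11.1%) lower, against 23.0% and 19.0% of 24763 genes. Genes without peaks have fewer counts and wider ratios, and at a CPM of at least 10 the shares came closer. There 10.1% of the 5' genes were higher and 10.1% lower in PA, against 13.3% and 13.04% of all genes, and in RO 7.79% and 10.2%, against 11.8% and 12.9%. Genes with peaks but no 5' peak had 9.76% and 11.7% in PA and 9.91% and 12.4% in RO at that level. The median log2 ratio of KO over WT of the 5' genes was 0.04 (-0.06 to 0.11) for PA and 0.00 (-0.08 to 0.08) for RO, against 0.04 in both for all genes kept. The shares of 5' genes past 2-fold were thus below those of all genes at both limits and near those of genes with other peaks.

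By the genotype of the peak the medians differed slightly. Genes with a 5' peak in KO that overlapped no WT peak had a median log2 ratio of 0.15 in PA (-0.02 to 0.26, 198 genes) and 0.19 in RO (0.02 to 0.33, 119 genes). Those with a 5' peak in WT and no KO counterpart had -0.13 (-0.57 to 0.23, 55 genes) and -0.07 (-0.21 to 0.04, 212 genes). Only the interval of the KO peaks in RO excluded 0, and the robust SD of the ratios of single 5' genes, 0.78 for PA and 0.75 for RO above 10 CPM, was several times these shifts. Peaks were listed more often at higher input levels. Choosing genes by a peak in 1 genotype can thus by itself favour a higher input there, and its part in these medians was not tested. The same medians were not taken for coding or 3' UTR peaks.

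Of the 5' genes with a CPM of at least 10, those lowest in KO in PA were Pxdc1 (202 counts in WT and 19 in KO, log2 ratio -3.17), Troap (238 and 35, -2.58) and Mif4gd, whose protein takes part in translation of histone mRNAs (4163 and 933, -2.04). Pxdc1 (8.65) and Troap (7.33) had their 5' peak in KO PA alone, the library in which they were low. The highest were BC048507 (83 and 784, 3.32), 4921530L21Rik (50 and 326, 2.77) and Cdc42ep3, an effector of Cdc42 (391 and 1795, 2.31). Cdc42ep3 had 5' peaks in all 4 lists, with folds of 2.64, 5.85, 55.6 and 39.0.

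In RO the lowest were 1700010B08Rik (230 and 43, -2.30), the F-box gene Fbxw5 (2958 and 635, -2.14) and Slc26a8, an anion transporter of the sperm tail (2607 and 614, -2.01). Each had its 5' peak in WT RO alone, with folds of 25.6, 6.53 and 4.63, and each was lower in KO in PA as well, by -1.27, -1.62 and -1.89. The highest were Actrt2, an actin-related protein of the sperm head (63 and 407, 2.72), Slc30a4, a zinc transporter (130 and 795, 2.67), and Arrdc2 (17 and 110, 2.63). Actrt2 (5.38) and Slc30a4 (17.5) also had their 5' peak in WT RO alone, so that single 5' peaks of WT RO lay in genes lower in KO and in genes higher in KO. Arrdc2 had 5' peaks in all 4 lists, with 7.38, 21.2, 24.2 and 10.5, and its log2 ratio in PA was -0.57.

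Of 612 genes with a 5' peak kept in both fractions, 35 were at least 2-fold higher in KO in both PA and RO, 39 at least 2-fold lower in both and 5 past 2-fold in opposite directions. These are 5.72%, 6.37% and 0.817%, against 8.70%, 6.89% and 5.57% of all 21725 genes kept in both fractions and 4.82%, 6.39% and 1.89% of 7679 genes with a peak but no 5' peak. Mif4gd was among those lower in both, at -2.04 and -2.36.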

How the data were processed

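Per the labels' protocols, total RNA was fragmented and m6A-bearing fragments were captured with an antibody before library preparation. The submitters' processing notes name cutadapt 2.5, HISAT2 2.1.0, HOMER 4.10.4 and the build mm10. The peak caller and the counting tool are not given in the sources used here, nor how shared reads, strand and duplicates were treated. The authors deposited whole-number counts per Ensembl gene for the 4 inputs, which are not normalized. Immunoprecipitated libraries enter through the peaks alone. Per the file headers, each of the 4 deposited peak lists gives exon blocks, class, gene, fold enrichment (a ratio of immunoprecipitated over input), a p-value and a log10 false discovery rate, taken as a score because it reaches minus infinity. The lists differ in the depth behind them, which is unknown, and peaks were called once per pair of libraries.

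TMM factors between 0.892 and 1.09 (edgeR 4.0.16, R 4.3.3) turned the counts into CPM and, after adding a prior of 2, into log2 CPM. A gene was kept if either library reached 1 CPM, and a log2 ratio of 1 or more in size counted as 2-fold. Shares have Wilson, differences of shares Newcombe, numbers exact Poisson and medians order-statistic intervals. Overlaps were checked against bedtools 2.31.1 and the ratios on simulated counts with known changes. Alternatives used other peak limits, overlap rules, scaling with DESeq2 1.42.0, filters and priors. The rest ran in Python 3.11.15 (pandas 2.3.3, numpy 2.4.6, scipy 1.17.1, matplotlib 3.10.9).

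The members and lists were chosen with earlier results of these data known. The genes named are, by rule, the 4 highest folds of each list, the 8 regions of all lists with the highest lowest fold, the 3 highest folds without a counterpart in the other genotype, the 3 highest and 3 lowest input ratios of each fraction, up to 6 members of each gene group, and the genes of the printed sequences. Zcchc6, Flrt1 and Mettl4 were chosen after their values were seen, and Gnaz, Ndufa8, Trmt112 and Hoxb6 because their input ratios passed 2-fold in opposite directions.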

Additional observations from a re-analysis of the deposited data

Results flagged for a closer look

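The share of 5' peaks moved in opposite directions between genotypes in the 2 fractions, 0.883 percentage points in PA and -0.768 points in RO for KO minus WT. Seen the other way, RO minus PA was 1.002 points in WT and -0.650 points in KO. Each difference rests on 1 list against 1 list, and the difference between the differences was not tested. Between genotypes the share of 3' UTR peaks changed with the same signs, and that of coding peaks with the opposite signs.

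Input ratios of KO over WT passed 2-fold in opposite directions in PA and RO for 5 of 612 genes with a 5' peak (0.817%), against 5.57% of all genes and 1.89% of genes with a peak but no 5' peak, and this too was not tested. On the log2 scale Zfp85 had 1.37 in PA and -1.57 in RO, at 66, 160, 116 and 36 counts for WT PA, KO PA, WT RO and KO RO. Gnaz, a G protein alpha subunit, had -1.19 and 2.18 at 72, 28, 23 and 106 counts. Ndufa8 of respiratory complex I had 1.43 and -1.06 at 33, 85, 105 and 47 counts. Trmt112 had 1.20 and -1.16 at 13, 30, 87 and 36 counts. Hoxb6 had -2.32 and 1.54 at 30, 4, 3 and 12 counts.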

How the results depend on the processing

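Sharing with the other genotype depended on the rule of overlap. A reciprocal overlap of 50% lowered it to 58.4% (WT) and 33.7% (KO) in PA, and 29.2% (WT) and 39.9% (KO) in RO. Asking only for some peak of the gene in the other list raised it to 85.0%, 69.5%, 67.8% and 77.7%. A counterpart that was itself a 5' peak gave 65.9% in WT PA, where the other lists stayed within their intervals. Of 84 alternatives to 24 summary results, 75 left the value within its interval, or a count within 1.5 times. The 4 differences of the 5' share kept their sign and an interval without 0 under all 16 alternatives. Alternatives chosen after seeing the data were the joining of overlapping peaks and the limit of 20 input counts in both libraries. The 138 input ratios of named genes kept their sign or lay within counting error under DESeq2 size factors. With 1 library per group no library could be left out.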
